A study of Mus musculus with 6 samples.

Results

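The 10 genes described here, Id1, Id2, Id3, Id4, Smad6, Smad7, Msx1, Msx2, Bambi and Nog, are genes that bone morphogenetic protein (BMP) signalling is known to switch on. They were taken by symbol from tables of RNA-seq counts that list 46078 genes, and all 10 were found. BMP ligands bind paired receptor kinases, which phosphorylate SMAD1 and SMAD5; these join SMAD4, enter the nucleus and bind enhancers of such genes. In the gastrulating mouse embryo BMP4 is needed for mesoderm to form, and it patterns mesoderm towards lateral and extraembryonic fates. Several of the 10 genes encode inhibitors of the same pathway, so they act as negative feedback.

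The RNA came from mesoderm of wild-type mouse embryos (genotype as labelled; the series description names the TCF/Lef:H2B-GFP reporter strain), dissected from the embryo proper at E7.25, left to adhere to fibronectin and kept in culture. There were 3 groups of 2 libraries: explants given 1 µM of an inhibitor labelled PD for 16 h, explants given 10 µM YZ9 for 16 h, and control explants. YZ9 inhibits PFKFB3, whose product stimulates glycolysis. The labels do not give the full name of PD or a vehicle for the controls, and nothing states that replicates are different embryos or cultures. The p-values therefore cover the spread among these 6 libraries, which may be technical between the 2 controls. The replicates of PD and those of YZ9 differed in sex, as given below, so they came from different embryos.

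Libraries held between 21253194 and 27810161 counts. All 16 mesoderm markers passed the filter on low counts, and their summed level was 2615 to 3267 CPM (counts divided by the TMM-scaled library size in megacounts) in PD libraries, 2356 to 2583 in YZ9 libraries and 2857 to 3525 in controls. Fn1 and Vim led these sums, for example at 1238 and 1283 CPM in control replicate 1. With PD, Pdgfra and Foxf1 were higher in both libraries than in both controls, Fn1, Vim and Hand2 were lower, and the others overlapped. The 8 primitive streak markers, led by Nodal, summed to 18.4 to 25.9 CPM with PD, 24.3 to 54.7 with YZ9 and 25.4 to 44.6 in controls, and T was at 0 to 0.322 CPM with PD, 0.0896 to 0.135 with YZ9 and 0 in controls. Of the 5 that were tested 0 passed in edgeR, and 3 (Eomes, Mixl1 and Fgf8) had an unadjusted p under 0.05 with PD and passed in DESeq2, with lower levels. Eomes had 0 and 0 counts with PD, 67 and 281 with YZ9 and 185 and 145 in controls. The part of these markers in the values of the BMP target genes was not tested. Of 13 feedback genes of the ERK pathway, 4 fell with PD (Spred1, Spry4, Egr1 and Spry2) and 0 rose. The median log2 fold change of the 13 was -4.08, which stayed the same with the 3 genes at 0 counts set to a floor of 3 counts per group; with YZ9 0 of the 13 passed in either direction in edgeR or DESeq2. DESeq2 called all 13 lower with PD. Without control replicate 1 or control replicate 2 the edgeR calls of the 4 ended (adjusted p between 0.332 and 0.419), those of Spred1, Spry2 and Spry4 ended with the replicate number as a block (0.0591), and that of Egr1 without PD replicate 1 (0.0557) or PD replicate 2 (0.0568). The replicates of the inhibitor groups differed in other ways. PD replicate 2 and YZ9 replicate 2 had 2119 and 3956 counts of Xist, an RNA made from the inactive X chromosome of females; the other 4 libraries had 0 to 1, hold counts of Y-linked genes and are called male below. Because the samples are bulk tissue, fewer cells of a type and less RNA per cell cannot be told apart.

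The 10 genes were measured at very different levels. On CPM per kilobase of annotated exon, the scale on which genes can be compared, controls ranked Id3 (206 ± 1.73, SD, n = 2) far above Id1 (53.0 ± 5.61), followed by Id2 (31.6 ± 0.0541), Bambi (28.9 ± 4.27), Msx2 (13.9 ± 5.55), Nog (7.70 ± 0.963), Msx1 (4.93 ± 2.18), Smad7 (4.36 ± 1.41), Smad6 (4.05 ± 0.609) and Id4 (0.420 ± 0.222). The control ranges of Id2 and Bambi overlapped, and so did those of Msx1, Smad7 and Smad6. Id3 was the highest and Id4 the lowest of the 10 in each of the 6 libraries. Id1 ranked 7 of 10 by its mean with PD, 3 with YZ9 and 2 in controls. All 10 genes passed the filter and were tested.

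Promoters of 6 of the 10 genes (Id2, Id3, Id4, Msx1, Msx2 and Smad6) were in the RefSeq table for GRCm38.p6, as 300 bases around each annotated start. These starts need not match the gene spans given below, which are from GENCODE. The stretches shown for Id2, Id3 and Msx2 lie inside the spans of their genes. That of Msx1 crosses the start of its gene's span, and its marked match lies inside the span. SMAD1 and SMAD5 are known to bind the GC-rich sequences GGCGCC and GGAGCC, and SMAD proteins in general the sequence CAGAC, and each was searched on both strands. GGAGCC or its reverse complement GGCTCC was present in 6 of the 6, and in 30.8% of all 32851 promoters of that length. GGCGCC, which is its own reverse complement, was present in Id2 and Id4, against 11.9% of all promoters, and CAGAC or GTCTG in Id3 alone of the 6, against 49.6%. A match describes the letters and is not a measured binding site. The stretches below, 30 bases each on the gene's strand, show the letters shared by the 6 promoters, with Id2 also showing GGCGCC; capitals mark the match.
Id2, chr12:25096163-25096192, minus strand: gtatgatggacgGGAGCCcttccaccaatg
Id2, chr12:25096306-25096335, minus strand: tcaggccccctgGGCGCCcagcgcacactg
Id3, chr4:136143623-136143652, plus strand: cctcgcatccgaGGCTCCgctgtcctcggc
Id4, chr13:48261091-48261120, plus strand: tactgctgtgccGGAGCCgagcgacgctgt
Msx1, chr5:37824559-37824588, minus strand: ggcggcggacccGGAGCCggcgagtgcgcc
Msx2, chr13:53472796-53472825, minus strand: gaggacaggctgGGCTCCcagcgcgcccct
Smad6, chr9:64022144-64022173, minus strand: accagccccctcGGAGCCtcgggctcagca

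**Figure D1:**
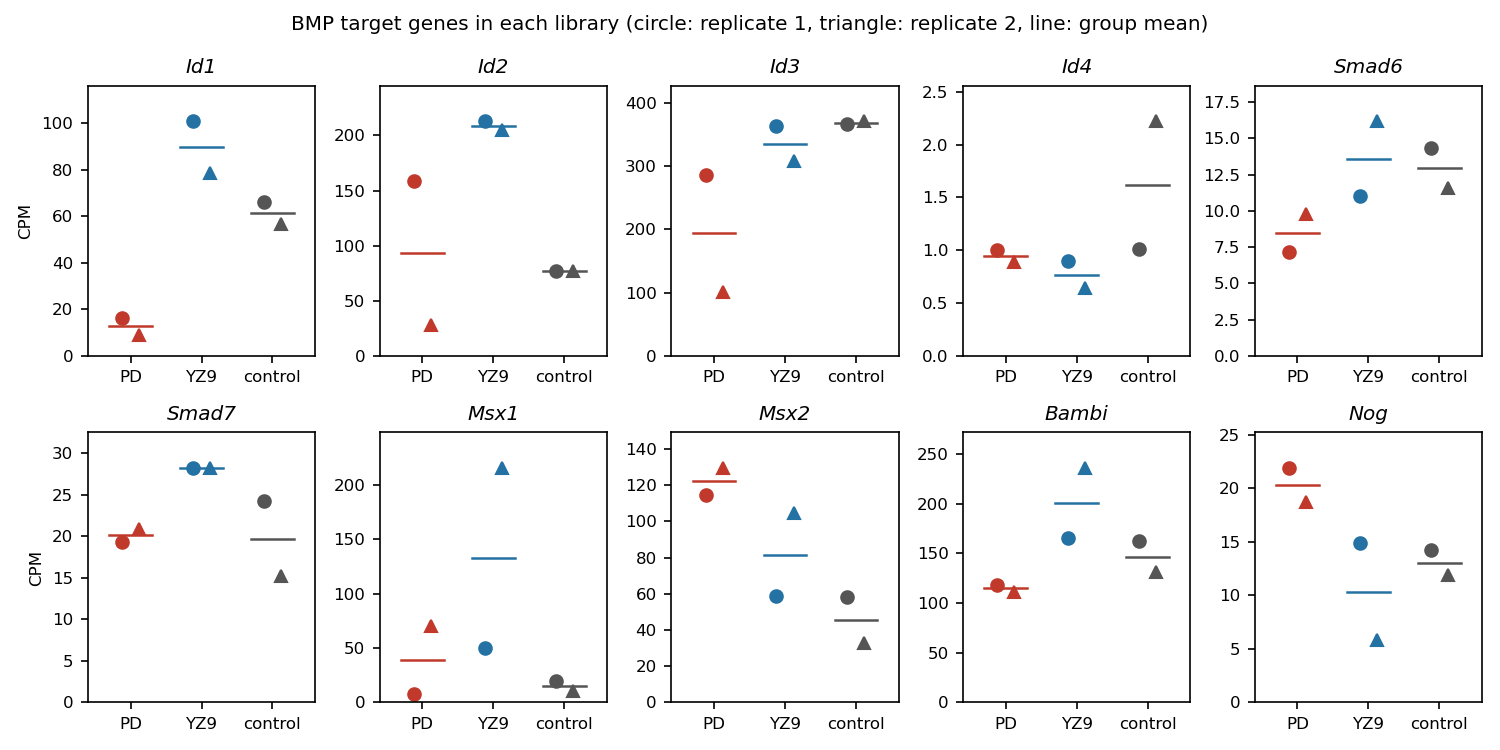
Level of each of the 10 BMP target genes in every library, in CPM (vertical axes, each starting at 0), for PD, YZ9 and control explants; circles are replicate 1, triangles replicate 2 and lines the mean of 2. Both PD libraries lie far below the other 4 for Id1, while the PD libraries stand wide apart for Id2, Id3 and Msx1.

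Comparisons were made over all 15568 genes that passed the filter, with edgeR's quasi-likelihood test on the 6 libraries: PD against control, YZ9 against control, and PD against YZ9, which uses no control value in its difference. The first 2 share their control libraries. With PD against control 0 of the 10 genes passed an adjusted p of 0.05, where 0.0964% of all genes did (0.0193% higher and 0.0771% lower with PD), and 2 of the 10 (Id1 and Msx2) had an unadjusted p under 0.05. With YZ9 against control 0 of the 10 passed, where 0.00642% of all genes did, and 1 (Msx1) had an unadjusted p under 0.05. Between PD and YZ9 1 of the 10 passed, Id1, where 0.122% of all genes did (0.0771% higher and 0.045% lower with PD), and Bambi also had an unadjusted p under 0.05. DESeq2, which called more genes in each comparison, passed 2 of the 10 with PD against control (Id1 and Msx2; 4.12% of all genes), 0 with YZ9 against control (3.33%) and 2 with PD against YZ9 (Id1 and Bambi; 3.61%).

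**Figure D2:**
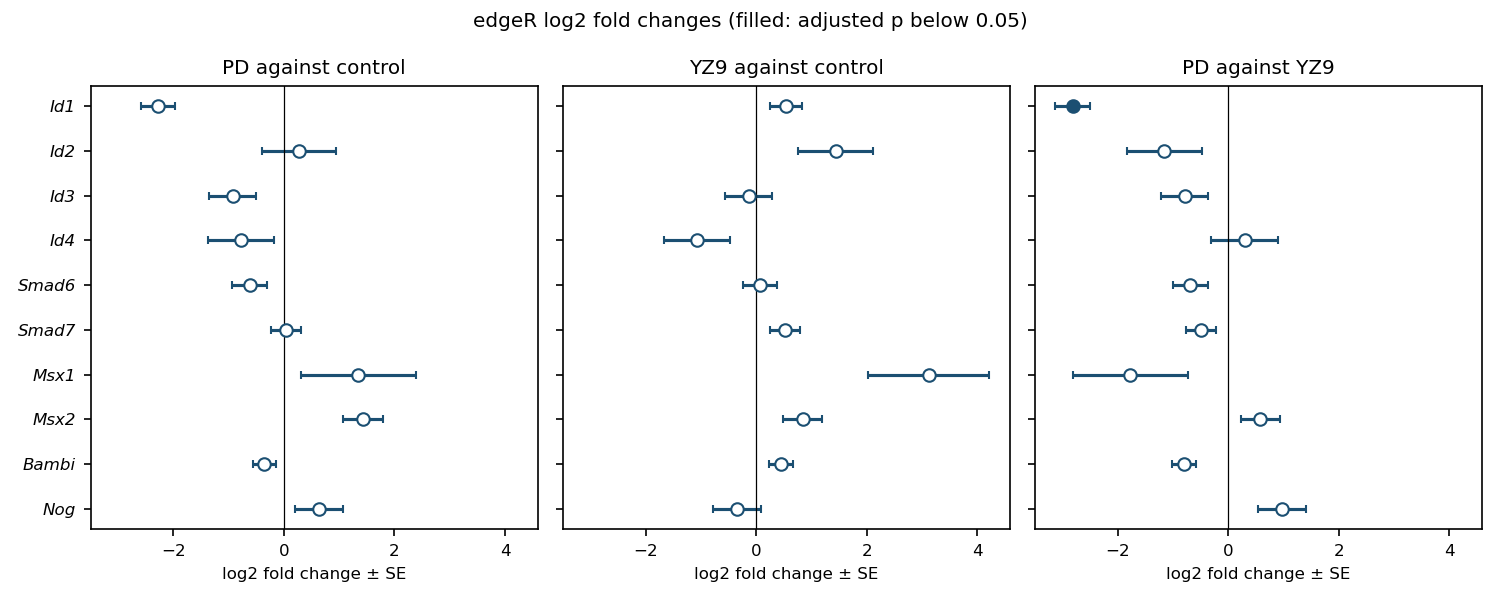
The edgeR log2 fold change of each gene (horizontal axis, bars are standard errors) in the 3 comparisons; filled points have an adjusted p below 0.05. Id1 between PD and YZ9 is the one filled point, and Msx1 has the widest bars.

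The Id genes encode inhibitors of differentiation, helix-loop-helix proteins that lack the DNA-binding region of their relatives. They pair with E proteins such as TCF3 and TCF12 and keep them off DNA, which holds back differentiation.

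Id1 was the member with the largest difference between the inhibitors. It had 423 and 228 counts in the PD libraries, 2254 and 2327 in the YZ9 libraries and 1764 and 1512 in the controls. Scaled for depth, it stood at 16.3 and 9.18 CPM with PD, 101 and 78.5 CPM with YZ9 and 66.1 and 56.9 CPM in controls. The 3 groups did not overlap: both PD libraries were lowest and both YZ9 libraries highest. Id1 fell with PD relative to YZ9, to 12.7 ± 5.01 CPM against 89.7 ± 15.9 CPM (SD, n = 2 each), a log2 fold change of -2.82 (SE 0.31, edgeR adjusted p = 0.0488).

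Against control, Id1 averaged 12.7 ± 5.01 CPM with PD and 61.5 ± 6.50 CPM in controls (n = 2 each), a log2 fold change of -2.27 (SE 0.31, edgeR unadjusted p = 1.95e-04, adjusted p = 0.101). That difference did not pass over all genes in edgeR. It passed in 4 of 13 alternative settings. Of these, 2 kept all libraries: edgeR without the filter (adjusted p = 1.84e-06) and DESeq2 (adjusted p = 5.75e-09). The other 2 hold 1 PD library each: without PD replicate 1 (log2 fold change -2.74) and the 4 male libraries (-1.92). Over the settings the adjusted p reached 0.486, the value without control replicate 2. The authors' deposited table lists Id1 at a log2 fold change of -2.27 and an adjusted p of 1.75e-08, in a comparison where 3.67% of its tested genes are below 0.05. With YZ9 against control Id1 had a log2 fold change of 0.54 (SE 0.29, edgeR adjusted p = 0.529). Id1 (ENSMUSG00000042745) lies on chromosome 2, 152736251 to 152737410, plus strand in GRCm38, with 1 merged exon block and no annotated gene overlapping it.

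The edgeR call of Id1 between PD and YZ9 lay close to the threshold. The log2 fold change stayed between -3.29 and -2.47 in all 13 alternative settings, and the adjusted p was under 0.05 in 6 of them. Leaving out control replicate 1 (adjusted p = 0.189), control replicate 2 (0.191), PD replicate 2 (0.0526), YZ9 replicate 1 (0.164) or YZ9 replicate 2 (0.0996) ended the edgeR call. It also ended with DESeq2's size factors (0.0519) and in the 4 libraries alone (0.216).

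Id3, the most abundant of the 10, had 286 and 101 CPM in PD libraries, 363 and 307 CPM in YZ9 libraries and 366 and 371 CPM in controls. The controls agreed closely while PD replicate 1 was 2.84 times PD replicate 2. Both PD libraries were below both controls and below both YZ9 libraries. The log2 fold change was -0.93 with PD against control (SE 0.43, edgeR adjusted p = 0.528), -0.79 with PD against YZ9 (SE 0.43, adjusted p = 0.542) and -0.14 with YZ9 against control (SE 0.43, adjusted p = 0.928). Without PD replicate 1 it became -1.87 against control (edgeR adjusted p = 0.0462) and -1.73 against YZ9 (adjusted p = 0.0473). Without PD replicate 2 it was -0.36 and -0.24. Id3 (ENSMUSG00000007872) lies on chromosome 4, 136143497 to 136145755, plus strand.

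Id2 had 159 and 27.7 CPM in PD libraries, 213 and 205 CPM in YZ9 libraries and 77.0 and 77.2 CPM in controls. The PD libraries fell on either side of the controls and differed 5.75-fold from each other, whereas the replicates differed 1.04-fold with YZ9 and 1.00-fold in controls. With YZ9 against control the log2 fold change was 1.44 (SE 0.68, edgeR adjusted p = 0.483); both YZ9 libraries were above both controls. Without PD replicate 1 or PD replicate 2 the log2 fold change was 1.44 and 1.45. The difference passed in 2 of 13 settings, without the filter (edgeR adjusted p = 0.0281) and in the 4 male libraries, which hold 1 YZ9 library. It did not pass in the 4 libraries of this comparison alone, which hold no PD library. It also did not pass when any 1 library was left out. The authors' deposited table, which holds no PD library for this comparison, lists Id2 at 1.46 with an adjusted p of 5.62e-08, in a comparison where 3.85% of its tested genes are below 0.05. With PD against control Id2 had a log2 fold change of 0.28 (SE 0.67, edgeR adjusted p = 0.952), which became -1.48 without PD replicate 1 and 1.04 without PD replicate 2. The difference of PD from YZ9 was -1.16 (SE 0.68, adjusted p = 0.565) and passed without PD replicate 1 (-2.92, adjusted p = 0.0218). Id2 (ENSMUSG00000020644) lies on chromosome 12, 25093799 to 25097140, minus strand.

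Id4 was barely present, with 26 and 22 counts in PD libraries, 20 and 19 in YZ9 libraries and 27 and 59 in controls. All 4 inhibitor libraries were below both controls in CPM (0.886 to 1.00 with PD, 0.641 to 0.896 with YZ9, 1.01 and 2.22 in controls), but PD replicate 1 and control replicate 1 were almost level. The log2 fold change was -0.77 with PD (SE 0.59, edgeR adjusted p = 0.761) and -1.07 with YZ9 (SE 0.60, adjusted p = 0.548). Id4 (ENSMUSG00000021379; chromosome 13, 48261228 to 48266026, plus strand) shares 82 and 171 exon bases with 2 antisense genes, and without strand in the libraries the reads of that overlap could belong to either gene.

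Shares within the Id family do not depend on how the libraries are scaled, and they are given with no test. On CPM per kilobase, Id1 made up 5.86% and 10.4% of the family total in PD libraries, 23.1% and 20.9% in YZ9 libraries and 19.4% and 17.02% in controls. Id2 made up 27.3% and 15.0% with PD, 23.2% and 26.0% with YZ9 and 10.8% and 11.0% in controls. The share of Id1 was thus lower in both PD libraries than in any other library, and the share of Id2 was higher in all 4 inhibitor libraries than in either control. Id3 held the largest share throughout, 66.8% and 74.3% with PD, 53.7% and 53.1% with YZ9 and 69.7% and 71.8% in controls. The family total was 239 and 75.8 CPM per kilobase in PD libraries, 377 and 323 in YZ9 libraries and 293 and 288 in controls, so the PD replicates differed in the total as well.

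**Figure D3:**
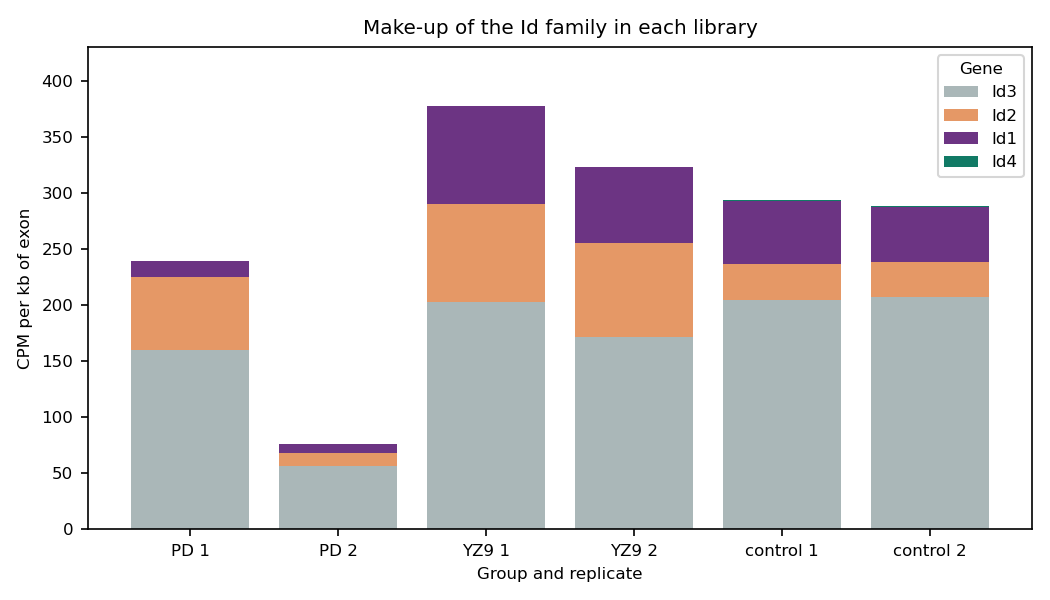
Stacked level of Id3, Id2, Id1 and Id4 in each library, in CPM per kilobase of exon (bars start at 0; there is 1 bar per library). The Id1 block is thinnest in PD replicates 1 and 2, and PD replicate 2 has the lowest total, 75.8.

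E proteins and other basic helix-loop-helix factors, the partners of Id proteins, were taken as a list: 9 of 14 were measured well enough to test, and 0 passed in edgeR in any comparison, with 2 with PD, 3 with YZ9 and 1 between PD and YZ9 at an unadjusted p under 0.05. DESeq2 passed 1 with PD (Hes1), 2 with YZ9 (Hes1 and Lyl1) and 0 between PD and YZ9. The member with the smallest p with PD was Hes1, a Notch target, at 47.2 and 37.1 CPM in PD libraries and 83.3 and 84.9 CPM in controls (log2 fold change -0.996, SE 0.195, edgeR adjusted p = 0.157, DESeq2 adjusted p = 0.00223). With YZ9 it was Lyl1, a blood and endothelial factor, at 3.85 and 3.88 CPM in YZ9 libraries and 11.5 and 12.4 CPM in controls (log2 fold change -1.62, SE 0.27, edgeR adjusted p = 0.171, DESeq2 adjusted p = 1.4e-05).

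Msx1 and Msx2 encode homeodomain repressors that BMP is known to induce in mesoderm, limb and neural crest. Msx2 had 115 and 130 CPM in PD libraries, 58.5 and 105 CPM in YZ9 libraries and 58.5 and 32.7 CPM in controls. Both PD libraries were above every other library, and the PD replicates differed by a factor of 1.13 only. With PD against control the log2 fold change was 1.42 (SE 0.36, edgeR unadjusted p = 0.00636, adjusted p = 0.225). It passed in DESeq2 (adjusted p = 0.00715), and the authors' deposited table lists 1.42 (adjusted p = 0.00111). With YZ9 against control it was 0.84 (SE 0.36, edgeR adjusted p = 0.450), and between PD and YZ9 0.58 (SE 0.36, adjusted p = 0.587). Msx2 (ENSMUSG00000021469) lies on chromosome 13, 53466884 to 53473074, minus strand.

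Msx1 was the most variable of the 10. It had 204 and 1737 counts in PD libraries, 1115 and 6407 in YZ9 libraries and 535 and 279 in controls, or 7.84 and 69.9 CPM with PD, 49.9 and 216 CPM with YZ9 and 20.05 and 10.5 CPM in controls. Replicate 2 was 8.92 times replicate 1 with PD and 4.33 times with YZ9. Both YZ9 libraries were above both controls (log2 fold change 3.12, SE 1.10, edgeR unadjusted p = 0.0267, adjusted p = 0.382), and the value was 1.72 without YZ9 replicate 2. The authors' deposited table lists 3.14 with an adjusted p of 0.0458. With PD the libraries lay on either side of the controls (log2 fold change 1.35, SE 1.04, edgeR adjusted p = 0.765), and the value was -0.96 without PD replicate 2. The difference of PD from YZ9 was -1.78 (SE 1.04, edgeR adjusted p = 0.567). Msx1 (ENSMUSG00000048450) lies on chromosome 5, 37820485 to 37824583, minus strand.

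Within the pair, Msx1 made up 6.75% and 36.4% of the summed Msx level per kilobase with PD, 47.5% and 68.6% with YZ9 and 26.6% and 25.4% in controls. Both YZ9 libraries were thus above both controls, while the PD libraries lay on either side of them. The libraries with the most Msx1, PD replicate 2 and YZ9 replicate 2, also had the most Hand1, a factor of lateral and extraembryonic mesoderm, which stood at 172 and 603 CPM with PD, 179 and 459 CPM with YZ9 and 242 and 125 CPM in controls, in replicate order. Their summed level of 8 cardiac markers was the lowest of the 6 libraries: it was 4376 and 1573 CPM with PD, 4369 and 2026 CPM with YZ9 and 5718 and 4763 CPM in controls, in replicate order, and 0 of the 8 markers were at zero anywhere. Actc1 led these sums, at 2765 and 1217 CPM with PD, 1654 and 629 with YZ9 and 3309 and 2452 in controls. Actc1, Tnnt2, Tnni1 and Myl4 were each lowest in PD replicate 2 and YZ9 replicate 2. Nkx2-5, Myl7, Myh6 and Myh7 were higher in YZ9 replicate 2 than in PD replicate 1. Nkx2-5 was at 1.85 and 0.564 CPM with PD, 39.9 and 13.2 with YZ9 and 15.1 and 3.39 in controls. PD replicate 2 and YZ9 replicate 2 are also the libraries with Xist. Other mesoderm markers did not all go with Hand1. Foxf1 was highest in PD replicate 2 and YZ9 replicate 2 as well (35.7 and 16.7 CPM). Hand2 was highest in controls (18.3 and 16.2 CPM), and Twist1 was lowest in PD replicate 2 (3.18 CPM). The part of these in the Msx1 and Id values was not tested.

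The remaining 4 genes encode inhibitors of the pathway. SMAD6 and SMAD7 are inhibitory SMADs that occupy receptors or recruit ubiquitin ligases to them, SMAD6 acting chiefly on BMP receptors and SMAD7 also on TGF-beta receptors. Smad6 had 7.15 and 9.78 CPM in PD libraries, 11.0 and 16.2 CPM in YZ9 libraries and 14.3 and 11.6 CPM in controls. Both PD libraries were below every other library, and the YZ9 libraries lay on either side of the controls. The log2 fold change was -0.62 with PD against control (SE 0.32, edgeR adjusted p = 0.576), -0.69 with PD against YZ9 (SE 0.32, adjusted p = 0.475) and 0.07 with YZ9 against control (SE 0.31, adjusted p = 0.951), the last being -0.22 without YZ9 replicate 2 and -0.08 without control replicate 2. Smad6 (ENSMUSG00000036867) lies on chromosome 9, 63953076 to 64022059, minus strand.

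Smad7 had 19.3 and 20.9 CPM in PD libraries, 28.2 and 28.3 CPM in YZ9 libraries and 24.2 and 15.2 CPM in controls. The inhibitor replicates were close together, the controls differed 1.60-fold, and both PD libraries lay between the controls. The log2 fold change was 0.03 with PD (SE 0.27, edgeR adjusted p = 0.989), 0.52 with YZ9 (SE 0.27, adjusted p = 0.517) and -0.49 between PD and YZ9 (SE 0.27, adjusted p = 0.548). Leaving out control replicate 2 or PD replicate 2 turned the PD value to -0.27 and -0.03. Smad7 (ENSMUSG00000025880) lies on chromosome 18, 75367529 to 75395935, plus strand.

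Bambi encodes a decoy receptor that lacks the kinase domain. It had 118 and 111 CPM in PD libraries, 165 and 236 CPM in YZ9 libraries and 162 and 131 CPM in controls. The PD libraries were lowest and the YZ9 libraries highest, although YZ9 replicate 1 and control replicate 1 were nearly level. Between PD and YZ9 the log2 fold change was -0.80 (SE 0.21, edgeR unadjusted p = 0.00748, adjusted p = 0.268), which passed in DESeq2 (adjusted p = 0.0419), a test that called 3.61% of genes. Against control it was -0.35 with PD (SE 0.21, edgeR adjusted p = 0.653) and 0.45 with YZ9 (SE 0.21, adjusted p = 0.477). Bambi (ENSMUSG00000024232) lies on chromosome 18, 3507923 to 3516404, plus strand.

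Nog encodes Noggin, a secreted protein that binds BMP ligands and blocks them. It had 21.9 and 18.7 CPM in PD libraries, 14.9 and 5.83 CPM in YZ9 libraries and 14.2 and 11.9 CPM in controls. Both PD libraries were above every other library, and YZ9 replicate 2 was the lowest of the 6. The log2 fold change was 0.64 with PD against control (SE 0.43, edgeR adjusted p = 0.714), 0.97 with PD against YZ9 (SE 0.44, adjusted p = 0.465) and -0.34 with YZ9 against control (SE 0.43, adjusted p = 0.795), the last turning to 0.20 without YZ9 replicate 2. Nog (ENSMUSG00000048616) lies on chromosome 11, 89300638 to 89302332, minus strand, with 1 merged exon block. Chrd, which encodes Chordin, an antagonist of the same ligands, was at 0.308 and 0.121 CPM with PD, 0.314 and 0.742 CPM with YZ9 and 0.150 and 0 CPM in controls, too low to be tested. Noto, a marker of the notochord, where Nog is known to be expressed, was at 0 in all libraries but PD replicate 2, which had 0.0403 CPM.

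**Figure D4:**
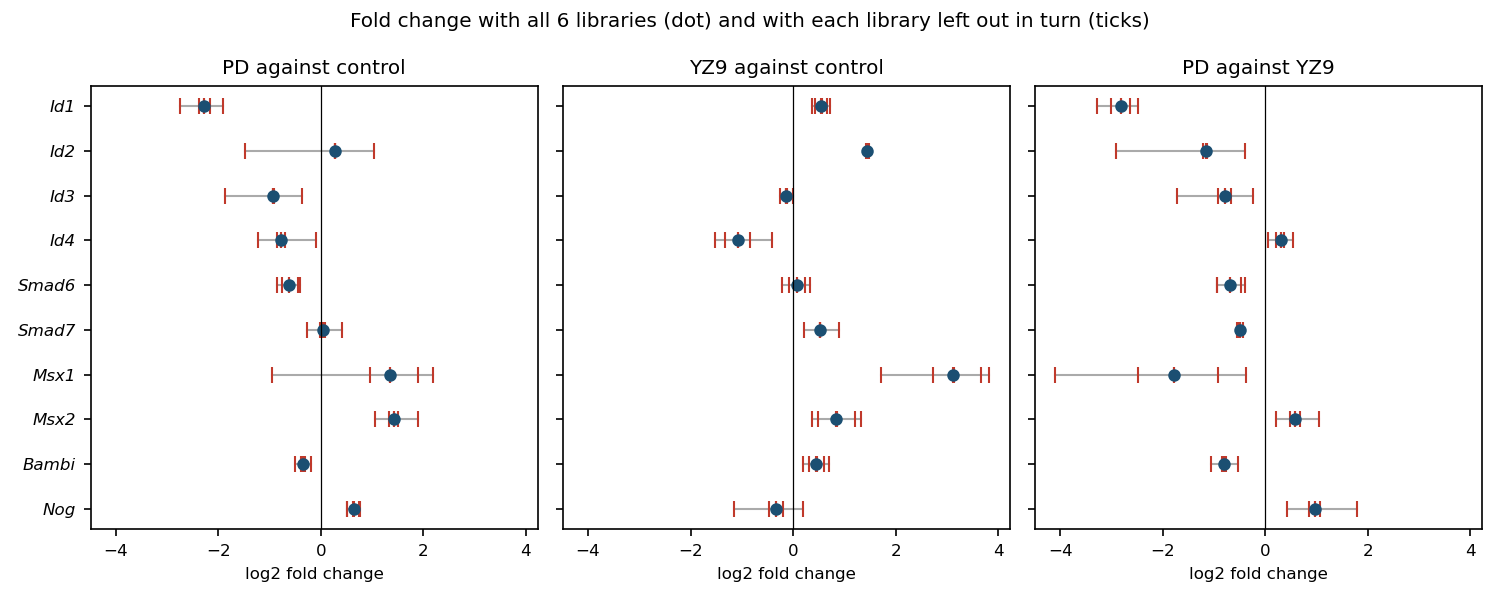
Log2 fold change of each gene (horizontal axis) with all 6 libraries (dots) and with each library left out in turn (6 ticks per gene, joined by a line), in the 3 comparisons. The ticks of Id1 stay on one side of 0 in each comparison, those of Id2, Msx1 and Smad7 cross 0 with PD, and those of Smad6 and Nog cross 0 with YZ9.

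In the order of their libraries the 10 genes did not go one way. With PD, 2 of the 10 (Msx2 and Nog) were higher in both libraries than in both controls and 5 (Id1, Id3, Id4, Smad6 and Bambi) lower, where 19.2% and 19.5% of all tested genes, 38.7% in all, were higher and lower in this sense. The median log2 fold change of the 10 was -0.16, that of all genes 0.00; the median size regardless of sign was 0.71 for the 10 and 0.27 for all genes. With YZ9, 6 (Id1, Id2, Smad7, Msx1, Msx2 and Bambi) were higher in both libraries than in both controls and 2 (Id3 and Id4) lower, where 21.1% and 24.5% of all genes, 45.7% in all, were. The median was 0.49 for the 10 and 0.00 for all genes, and the median size 0.53 and 0.32. Between PD and YZ9, 2 (Msx2 and Nog) were higher with PD and 6 (Id1, Id2, Id3, Smad6, Smad7 and Bambi) lower with PD, where 21.6% and 21.4% of all genes, 43.0% in all, were, with a median of -0.74 for the 10 and a median size of 0.80, against 0.31 for all genes.

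The rest of the pathway was measured in the same libraries. Bmp4, the main ligand of this stage, was at 273 and 416 CPM in PD libraries, 233 and 396 CPM in YZ9 libraries and 350 and 267 CPM in controls. The groups overlapped, with log2 fold changes of 0.16 with PD (SE 0.31, edgeR adjusted p = 0.935), 0.03 with YZ9 (SE 0.31, adjusted p = 0.980) and 0.13 between PD and YZ9 (SE 0.31, adjusted p = 0.913). Of 9 tested ligand genes 0 passed in edgeR or DESeq2 in any comparison and 0 had an unadjusted edgeR p under 0.05. The smallest p values belonged to genes of very low level: Gdf2, which encodes BMP9, had 0.730 and 2.98 CPM with PD and 0 and 0.565 CPM in controls (log2 fold change 2.695, SE 1.397, adjusted p = 0.582), and Bmp8b had 2.19 and 0.607 CPM with YZ9 and 0 and 0.339 CPM in controls (log2 fold change 3.004, SE 1.495, adjusted p = 0.501). Gdf2 again had the smallest p of the ligands between PD and YZ9 (log2 fold change 2.92, SE 1.42, adjusted p = 0.500).

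All 12 receptor and signal SMAD genes were tested, and 0 passed in edgeR in any comparison. The number with an unadjusted edgeR p under 0.05 was 2 with PD, 0 with YZ9 and 1 between PD and YZ9, and DESeq2 passed 1, Eng, with PD. Eng, an endothelial co-receptor, had 12.3 and 9.98 CPM with PD and 40.0 and 20.6 CPM in controls (log2 fold change -1.44, SE 0.42, edgeR adjusted p = 0.260, DESeq2 adjusted p = 0.0333). Bmpr1a, the type I receptor that mesoderm formation requires, had 88.0 and 91.1 CPM with YZ9 and 113 and 128 CPM in controls (log2 fold change -0.43, SE 0.19, adjusted p = 0.454), and a log2 fold change of 0.49 between PD and YZ9 (SE 0.19, adjusted p = 0.402). The median log2 fold change of this group was -0.19 with PD and -0.17 with YZ9.

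Of 11 tested secreted antagonists and modulators 0 passed in edgeR; 3 with PD, 3 with YZ9 and 2 between PD and YZ9 had an unadjusted p under 0.05. DESeq2 passed 0 with PD, 2 with YZ9 (Fst and Tll1, both lower) and 2 between PD and YZ9 (Bmper and Fstl1). The smallest p against control belonged with both inhibitors to Tll1, a protease that cleaves Chordin, at 4.15 and 1.57 CPM with PD, 2.33 and 1.28 CPM with YZ9 and 10.2 and 7.72 CPM in controls. Its log2 fold change was -1.65 with PD (SE 0.56, edgeR adjusted p = 0.335) and -2.32 with YZ9 (SE 0.57, adjusted p = 0.253, DESeq2 adjusted p = 0.00924). Fstl1, a follistatin-like secreted protein, stood at 1266 and 1136 CPM with PD and 759 and 589 CPM with YZ9 (log2 fold change 0.83, SE 0.16, edgeR adjusted p = 0.146, DESeq2 adjusted p = 0.00414).

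Of 9 intracellular regulators of SMAD signalling 0 passed in edgeR or in DESeq2, and 0 with PD, 1 with YZ9 and 1 between PD and YZ9 had an unadjusted edgeR p under 0.05. Zfp423, a zinc finger cofactor of SMADs, had 7.57 and 9.98 CPM with PD, 14.4 and 20.9 CPM with YZ9 and 18.0 and 12.1 CPM in controls, with a log2 fold change of -0.78 with PD against control (SE 0.33, edgeR adjusted p = 0.474) and -1.01 with PD against YZ9 (SE 0.33, adjusted p = 0.349). Tob1, an antiproliferative protein that restrains BMP SMADs, had 33.6 and 28.6 CPM with YZ9 and 22.2 and 16.8 CPM in controls (log2 fold change 0.68, SE 0.23, adjusted p = 0.377).

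Of 15 tested other genes known to respond to BMP 0 passed in edgeR, and 5 with PD, 3 with YZ9 and 6 between PD and YZ9 had an unadjusted p under 0.05. DESeq2 passed 1 with PD (Foxf1, higher), 1 with YZ9 (Tbx3) and 3 between PD and YZ9 (Prdm1, Tbx2 and Tbx3, all lower with PD). The list had median log2 fold changes of 0.20 with PD, 0.35 with YZ9 and -0.41 between PD and YZ9. Tbx3, a T-box repressor, had 17.5 and 34.3 CPM with YZ9 and 3.64 and 1.47 CPM in controls (log2 fold change 3.34, SE 0.62, edgeR adjusted p = 0.181, DESeq2 adjusted p = 3.54e-06). Prdm1, which encodes the repressor BLIMP1 of germ cell precursors, had 0.115 and 0.0805 CPM with PD, 5.55 and 1.89 CPM with YZ9 and 0.675 and 1.13 CPM in controls. Its log2 fold change was -3.14 with PD against control (SE 0.82, adjusted p = 0.229) and -5.17 with PD against YZ9 (SE 0.83, adjusted p = 0.108, DESeq2 adjusted p = 3.73e-05). Of 9 TGF-beta and Nodal targets 0 passed in edgeR, where 1 with PD, 3 with YZ9 and 4 between PD and YZ9 had an unadjusted p under 0.05, and DESeq2 passed 1, 2 and 1 of them in that order. Tgfbi, a matrix protein, had a log2 fold change of -1.10 with YZ9 against control (SE 0.27, edgeR adjusted p = 0.254, DESeq2 adjusted p = 0.0214).

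Markers of other tissues were summed in each library; 0 of those tested passed in edgeR in any comparison, and several sums overlapped between groups. DESeq2 passed Cdh1, Cldn6 and Foxa2 of the endoderm and notochord list, Afp and Rbp4 of the visceral endoderm list and Epcam, Grhl3, Krt8 and Utf1 of the ectoderm list as higher with PD than in controls. With YZ9 against control it passed Cdh1, Foxa2, Epcam and Utf1 of these lists as higher, and 0 of the visceral endoderm list. In the endothelial, blood, cardiac and amnion lists, DESeq2 passed Nkx2-5 as lower with PD than in controls. With YZ9 against control it passed Pecam1, Hbb-y, Itga2b and Postn of those lists as lower and Cldn5 as higher. Between PD and YZ9 it passed Esam and Nkx2-5 as lower with PD, and Hbb-y, Postn, Grhl3, Afp and Rbp4 as higher with PD. The 9 definitive endoderm and notochord markers, led by Cldn6 and Cdh1, summed to 93.6 to 556 CPM in PD libraries, 123 to 343 in YZ9 libraries and 17.1 to 23.9 in controls, with 3 and 0 of the 9 at 0 in PD libraries, 3 and 2 in YZ9 libraries and 3 and 4 in controls. The 8 visceral endoderm markers summed to 17.5 to 91.1 CPM with PD, 4.97 to 7.52 with YZ9 and 5.62 to 11.2 in controls, with Hnf4a at 0 in all. The 12 epiblast and ectoderm markers, led by Krt8 and Krt18, summed to 6936 to 10420 CPM with PD, 5272 to 6331 with YZ9 and 4685 to 5320 in controls, with Sox1 at 0 in all. Krt8 (4860 and 3931 CPM with PD) and Krt18 (5456 and 2940) made up nearly all of these sums. Pou5f1 reached at most 0.362 CPM in any library, Nanog 0.89 and Sox2 2.77. Otx2 was at 2.38 and 6.76 CPM with PD, 4.12 and 6.51 with YZ9 and 11.3 and 8.2 in controls. The 9 endothelial markers summed to 303 to 423 CPM with PD, 201 to 301 with YZ9 and 260 to 287 in controls, and the 8 blood markers to 463 to 6502 CPM with PD, 27.5 to 1140 with YZ9 and 2443 to 7362 in controls. Tek led the endothelial sums, at 183 and 351 CPM with PD, 83.8 and 200 with YZ9 and 164 and 135 in controls. Pecam1, Cdh5, Tie1 and Erg were lower in both PD libraries than in both controls, Tek and Cldn5 higher, and the others overlapped. The median log2 fold change of the 9 endothelial markers was -0.18 with PD. The 8 amnion and extraembryonic mesoderm markers, which are led by Ahnak and Igf2 and include Bmp4, summed to 2636 to 3990 CPM with PD, 2300 to 2588 with YZ9 and 2694 to 3310 in controls, with 1 and 0 of the 8 at 0 in PD libraries, 2 and 0 in YZ9 libraries and 1 and 1 in controls. Their part in the levels of the BMP target genes was not tested.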

How the data were processed

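Total RNA of 6 explant samples was sequenced from low-input template-switching libraries, per the labels' protocols; this kind of kit keeps no strand. Per the submitters' processing notes, CASAVA 1.8.2, STAR 2.7.9a and DESeq2 1.40.1 were used with GRCm38; neither the counting step nor the annotation release is given there. The authors deposited whole-number counts per gene and library, a normalized signal (counts over 1 size factor per library within each table), log2 fold changes with standard errors, a Wald statistic (a score), and p-values with adjusted p-values. The control counts of both tables were identical and were joined. Genes were filtered with filterByExpr (minimum count 10, minimum total 15), which left 15568, scaled by TMM, and tested by quasi-likelihood (edgeR 4.0.16 under R 4.3.3) with all 6 libraries in 1 fit, 2-sided, with Benjamini-Hochberg adjustment over all genes (threshold 0.05). The size of a log2 fold change divided by the root of its F statistic gives its SE. CPM use TMM-scaled library sizes; exon lengths are merged exons of GENCODE M21, which holds 98.0% of the deposited gene IDs. Chi-square statistics per gene between replicates averaged 96.0 in PD, 62.2 in YZ9 and 54.7 in controls, where sampling alone gives about 1, so no library is a copy of another, and replicate spread rather than depth limits the precision.

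Alternatives were DESeq2 size factors, no filter, DESeq2 1.42.0, limma-trend (limma 3.58.1, prior count 3), the 4 libraries of a comparison, the replicate number as a block, the 4 male libraries (Y-linked counts and at most 1 count of Xist), and leaving out each library; where a group then holds 1 library, it is assumed to vary like the others. The tests were checked on simulated data. Named genes were the 10 members, Bmp4, Chrd, and of each pathway list up to 4 genes past the threshold or else the gene with the smallest p, of which 1 is not reported here; Hand1, Noto, T, Eomes, Xist, list members named for passing in DESeq2 and the Id and Msx shares were chosen after their values were seen. The members and lists were chosen with earlier results of these data known.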

Additional observations from a re-analysis of the deposited data

How the results depend on the processing

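Over the 10 genes and 3 comparisons, 355 of the values recomputed under an alternative kept their direction and their side of the threshold, 15 passed where the reported one did not, 7 no longer passed and 13 changed sign. The 7 are Id1 between PD and YZ9, given above. The number of BMP target genes called was 0, 0 and 1 with PD against control, YZ9 against control and PD against YZ9. It was 3, 2 and 2 without the filter, 2, 0 and 2 with DESeq2, 1, 1 and 1 in the male libraries, 0, 0 and 0 with DESeq2 size factors and with the 4 libraries alone, and 0 to 2, 0 and 0 to 3 when 1 library was left out. All genes called were 15, 1 and 19; they were 712, 556 and 601 without the filter, 629, 519 and 529 with DESeq2, 428, 183 and 132 in the male libraries, 20, 1 and 34 with limma-trend, 19, 5 and 0 in the 4 libraries alone, 15, 1 and 14 with DESeq2 size factors, and 0 to 33, 0 to 9 and 0 to 35 when 1 library was left out. The cause was not tested.

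With replicate number added as a blocking term (replicate block), edgeR called 1, 3 and 12 genes and 0, 0 and 1 BMP target genes. Libraries share only a number: their deviations correlated at -0.0985 between PD and control, 0.166 between YZ9 and control and 0.353 between PD and YZ9.

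Some log2 fold changes turned sign. With PD against control, Id2 was -0.216 with limma-trend and -0.0274 with the replicate block, Smad7 -0.0252, Msx1 -0.96 and Bmp4 -0.18 in the male libraries. With YZ9 against control, Smad6 was -0.22, Nog 0.20 and Bmp4 -0.39 in the male libraries, and Bmp4 was -0.00976 with limma-trend and -0.0379 with the replicate block. When each library was left out in turn, the values with PD ran from -1.48 to 1.04 for Id2, -0.27 to 0.41 for Smad7, -0.96 to 2.20 for Msx1 and -0.18 to 0.44 for Bmp4. Those with YZ9 ran from -0.22 to 0.33 for Smad6, -1.15 to 0.20 for Nog and -0.39 to 0.37 for Bmp4, and Bmp4 between PD and YZ9 ran from -0.21 to 0.55. DESeq2 size factors moved the median log2 fold change of all genes by less than 0.1.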
